A study of Mus musculus with 2 samples.

Results

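The genes described here encode the factors that start and extend protein chains on cytosolic ribosomes. They were taken by symbol, as every gene of the count table whose name begins with *Eif1* to *Eif6* or with *Eef1* or *Eef2*, leaving out the kinases named *Eif2ak*. This gave 62 of the 17774 genes, of which 59 had a count in at least 3 cells. The 3 left out were *Eif3c* (2 counts in all), *Eif4e1b* (2) and *Eef1akmt4* (3). The counts came from 2 libraries of single GFP-positive cells, 1 per group, sorted from retinae of C57BL/6 mice at P24. All mice carried the *Pde6c*cpfl1 mutation, which causes cone dystrophy, crossed with the *Chrnb4*.eGFP line, in which GFP marks the cones. One library was from uninjected mice (82 cells kept, with 1113424 counts), and the other from mice given 10 µM GSK-J4, a blocker of H3K27 demethylases, into the vitreous at P14 (64 cells kept, with 208578 counts). Neither of the 2 libraries was from sham-injected mice, so an effect of the injection and one of GSK-J4 cannot be told apart. The number of mice per library is not stated. With 1 plate per library, a difference between plates and an effect of GSK-J4 cannot be told apart. Cells of a library are not replicates of its condition, and no p-value is given.

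Initiation begins when eIF2 brings the initiator tRNA to the small ribosomal subunit, with eIF3 as a scaffold and eIF1 and eIF1A guarding the choice of start codon. The eIF4 factors bind the cap of the mRNA and unwind its leader, and eIF2B recharges eIF2 with GTP, a step that is blocked when stress kinases phosphorylate eIF2. In elongation, eEF1A delivers aminoacyl-tRNAs, the eEF1B subunits recharge it, and eEF2 moves the ribosome along. Photoreceptors renew their outer segments throughout life, which calls for a high rate of protein synthesis.

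Of the 62 genes, 48 had a promoter window in the RefSeq table of GRCm38.p6, and the 250 bases before the start were searched on both strands. The E-box CACGTG, bound by the Myc family, was found in 11 of 48 (22.9%) and in 7.65% of the windows of 12039 measured genes. GGGCGG, the core of an SP1 site, was found in 36 (75% and 53.7%), TGACG, the short form of the cyclic AMP response element, in 21 (43.8% and 24.3%), CCAAT in 11 (22.9% and 35.0%) and TATAAA in 5 (10.4% and 8.42%). The whole element TGACGTCA was found in none of the 48 and in 2.46% of all windows. The windows of *Eef1a1* (chr9:78481725-78481974, minus strand), *Eif3f* (chr7:108934165-108934414, plus strand), *Eif5a* (chr11:69921387-69921636, minus strand), *Eef2* (chr10:81176381-81176630, plus strand) and *Eif2b5* (chr16:20498567-20498816, plus strand) are shown as examples, picked by hand from the 16 windows that overlap no annotated exon. The first pair of genes had no count after GSK-J4 and the rest differed between the sides of the plate, as did some genes whose windows are not shown. They are written on the strand of the gene, and capitals mark the E-box, SP1, CCAAT and TATAAA matches of either strand, so that CCGCCC is an SP1 core on the opposite strand.
Eef1a1: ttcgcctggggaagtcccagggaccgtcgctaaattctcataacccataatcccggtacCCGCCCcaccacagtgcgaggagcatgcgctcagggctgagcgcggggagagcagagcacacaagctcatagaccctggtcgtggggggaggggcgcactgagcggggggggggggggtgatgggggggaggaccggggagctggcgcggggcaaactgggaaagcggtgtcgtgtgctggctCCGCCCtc
Eif3f: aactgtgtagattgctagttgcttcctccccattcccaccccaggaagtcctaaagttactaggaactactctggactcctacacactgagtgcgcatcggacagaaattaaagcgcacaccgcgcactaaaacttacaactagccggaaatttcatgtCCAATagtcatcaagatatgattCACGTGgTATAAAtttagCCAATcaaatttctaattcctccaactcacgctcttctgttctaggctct
Eif5a: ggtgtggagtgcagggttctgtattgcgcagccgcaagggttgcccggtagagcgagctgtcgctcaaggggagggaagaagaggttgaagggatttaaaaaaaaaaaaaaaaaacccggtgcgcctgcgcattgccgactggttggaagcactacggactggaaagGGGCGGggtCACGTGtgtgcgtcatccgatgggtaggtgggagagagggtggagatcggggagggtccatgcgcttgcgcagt
Eef2: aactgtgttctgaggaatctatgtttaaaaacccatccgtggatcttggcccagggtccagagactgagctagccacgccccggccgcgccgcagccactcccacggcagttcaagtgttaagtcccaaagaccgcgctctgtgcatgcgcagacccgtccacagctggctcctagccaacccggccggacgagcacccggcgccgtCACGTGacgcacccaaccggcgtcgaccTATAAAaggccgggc
Eif2b5: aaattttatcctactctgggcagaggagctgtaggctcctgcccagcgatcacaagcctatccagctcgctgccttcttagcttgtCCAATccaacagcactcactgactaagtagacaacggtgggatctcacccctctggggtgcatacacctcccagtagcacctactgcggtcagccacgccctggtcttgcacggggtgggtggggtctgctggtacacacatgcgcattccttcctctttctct
*Eif3f*, *Eif5a* and *Eef2* share the E-box, *Eef1a1* and *Eif5a* have SP1 cores, *Eif3f* and *Eif2b5* CCAAT boxes, and *Eif3f* and *Eef2* the letters TATAAA. By the log-fold limit defined below, 6 of the 10 kept genes with an E-box were lower after GSK-J4. None was higher, 3 were within the limit and 1 was seen in too few cells. Over the 46 factors detected 30 were lower, and over all genes detected 24%. Between the sides of the uninjected plate, 4 of the 10 were higher in columns 1 to 6 and 3 in columns 7 to 12. Among the 50 factors detected 16 and 10 were, and among all genes detected 15.9% and 14.6%.

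The uninjected library held 6398 counts of these genes, or 0.575% (0.561 to 0.589%) of all its counts, and the GSK-J4-treated library 337, or 0.162% (0.145 to 0.180%). All intervals are at 95% and cover counting error only, by the exact Poisson method for counts and by Clopper and Pearson's for shares. Among uninjected cells the share ran from 0.0710% to 3.32% with a median of 0.450%, and in GSK-J4-treated cells from 0% to 0.911% with a median of 0.101%. No uninjected cell lacked the factors, whereas 14 of 64 GSK-J4-treated cells had no count of any of them. A median of 13 different factors (1 to 46) was seen per uninjected cell and 3 (0 to 10) per GSK-J4-treated cell. The cells differed in depth, with medians of 8118 and 2336 counts. Thinned to 867 counts per cell, with 1 shallower uninjected cell and 14 of the other library set aside, the shares were 0.665% and 0.194%, the medians 3 and 1 factors, and 2 of 81 and 18 of 50 cells had none. The plot of shares per cell shows the ranges of the libraries overlapping and the medians apart on both sides of the plates.

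**Figure D1:**
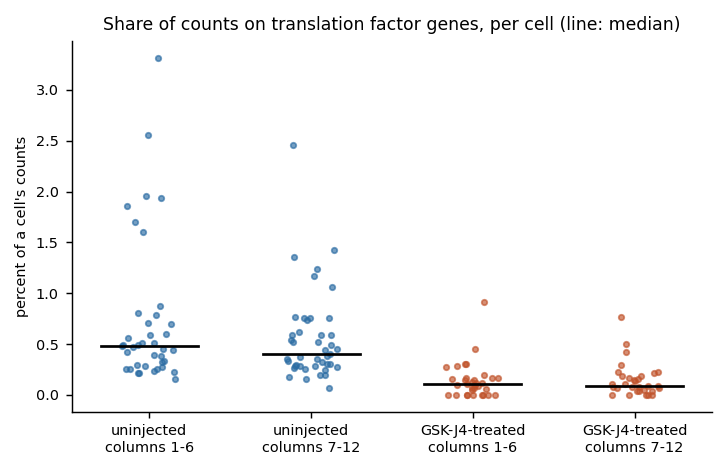
Percent of each cell's counts that fell on the 59 translation factor genes, by library and plate side, with 1 point per cell and a line at the median. The medians were 0.485% and 0.403% on the sides of the uninjected plate and 0.109% and 0.0874% on those of the GSK-J4-treated plate.

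The sort was for cones, and the libraries differed in cone transcripts too. All 82 uninjected cells had counts of at least 3 of 11 cone markers and none of the 64 GSK-J4-treated cells did, of which 50 had no count of any. The cells of that library are therefore called by its label and not as cones. Cone markers took 2.59% of the uninjected counts (0.358 to 9.81% per cell) and 0.213% of the GSK-J4-treated counts (0 to 6.74% per cell), where 5 of the 11, *Opn1sw*, *Gngt2*, *Cngb3*, *Pde6c* and *Guca1a*, were at 0. Rod markers took 0.139% (0 to 0.796% per cell) and 0.0201% (0 to 0.409%), with *Nr2e3* at 0 after GSK-J4, and Müller glia markers 0.108% (0 to 3.91%) and 0.0278% (0 to 0.650%), with none at 0. Amacrine cell markers took 0.00476% (0.00357 to 0.00623%) and 0.0125% (0.00814 to 0.0183%), from 53 and 26 counts, with at most 0.399% and 0.238% in a cell and with *Gad2* at 0 in the uninjected and *Slc6a9* at 0 in the GSK-J4-treated library. The intervals overlapped for bipolar cell markers (0.00961% and 0.0110%), ganglion cell markers (0.00763% and 0.00911%) and microglia markers (10 and 7 counts). Within the GSK-J4-treated library, the 14 cells with a cone marker count had 0.162% (0.133 to 0.195%) of their counts on translation factors and the 50 cells without one 0.161% (0.141 to 0.184%). Genes named *Olfr* or *Vmn*, receptors of the nose, took 0.633% of the uninjected and 1.46% of the GSK-J4-treated counts. The part of these differences in the results below was not tested. Fewer counts per cell and less RNA per cell cannot be told apart.

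By the ratio of summed counts, each scaled to its library's total, 33 of the 59 genes were lower after GSK-J4 beyond counting error, 5 were higher and 21 were within it. Over all 15947 genes, 14.1% were lower and 24% higher by this measure. The 15947 genes include many with few counts, and a gene with more counts passes this limit more easily. The second measure is the log-fold, the natural log of the mean scaled count per 10000 plus 1 in GSK-J4-treated cells minus the same in uninjected cells. It was read at a limit of 0.3 for genes detected in 10% or more of either library's cells. Among the 46 factors so detected, 30 were lower, 1 was higher and 15 lay within the limit, against 24% lower and 20.4% higher of 7682 genes. Of these 46, 44 reached 10% of uninjected cells and 7 reached it after GSK-J4, so that most entered through the uninjected library. The median log-fold was -0.49 over the 46 and -0.38 over all 59, and -0.0050 over the 7682 genes. Because 1 is added to each mean, a gene with a low mean passes the limit of 0.3 less easily. At detection in 25% or more of either library's cells, 25 of 30 factors were lower and 1 higher, against 46.2% and 21.9% of all genes. The medians there were -0.63 for the factors and -0.22 for all genes. Compared within columns 1 to 6 and within columns 7 to 12 of the plates, 35 of the 46 were negative on both sides, 2 were positive on both and 9 had a different sign on each side, beside 33.0%, 30.8% and 36.1% of the 7682 genes.

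**Figure D2:**
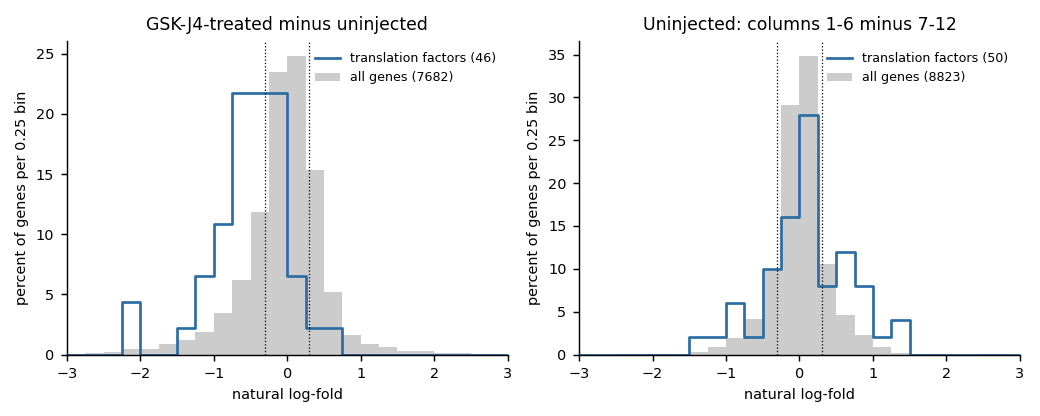
Distribution of the log-fold, as percent of genes per bin of 0.25, for translation factor genes (line) and all genes (bars), between the libraries (left) and between the sides of the uninjected plate (right), with dotted lines at the limits of 0.3. The factors lie mostly left of 0 between the libraries (median -0.49), and on both sides of 0 between the plate sides (median 0.13).

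Other families of housekeeping genes are given beside them. The 81 cytosolic ribosomal protein genes went from 3.61% to 0.235% of counts, with 75 of 79 detected genes lower and a median log-fold of -1.34, and the 36 proteasome subunit genes from 0.338% to 0.0686%, with 22 of 31 lower and a median of -0.55. Of the 59 factors, 11 had no count after GSK-J4, 23 had 1 to 3 and 25 had at least 4. Among genes with at least 100 uninjected counts, 4 of 17 factors (23.5%) and 395 of 1853 genes (21.3%) were at 0 there, and with at least 50 counts 6 of 32 (18.8%) and 604 of 3306 (18.3%), so that the share of factors at 0 was close to that of other genes as abundant.

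The 4 most abundant genes held 2930 of the 6398 uninjected counts (45.8%), namely *Eif3b*, *Eif1*, *Eif2s2* and *Eef1a1*. On the scale of summed counts per 10000 and per kb of the main transcript, *Eif1* stood highest with 4.80 (4.46 to 5.17), followed by *Eef1a1* with 3.15 (2.91 to 3.40) and *Eif3b* with 2.86 (2.68 to 3.05), which do not differ beyond their intervals. *Eif2s2* with 2.32 (2.14 to 2.50) and *Eif3k* with 2.02 (1.73 to 2.34) came next and overlap likewise. The counts come from reads of the 3' and 5' ends, so they need not rise with length, and this order depends on the division. Per 10000 alone, *Eif3b* (8.42) stood above *Eif1* (6.35), *Eif2s2* (5.89) and *Eef1a1* (5.65). For *Eif2s2*, 278 of the counts lay in 1 cell and 263 in another. Reads that fit several genes could be lost or shared, and 13 of the 59 factors had 25% or more of their 45-base stretches, the length of a read, in other genes too. Among them were *Eif4a1* (66.0%), *Eef1g* (65.3%), *Eef1a1* (64.7%), *Eif3m* (44.3%), *Eif1* (33.0%), *Eif2s2* and *Eif3h* (28.9% each) and *Eif3e* (26.7%), whose levels are uncertain to that extent.

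Among the start-codon and subunit-joining factors, *Eif1* (chromosome 11, 100319885 to 100322096), which keeps the scanning ribosome from starting at the wrong codon, had 707 (656 to 761) counts in 65 of 82 uninjected cells. It had 0 in the GSK-J4-treated library, at least 44.1-fold lower when set against a floor of 3 counts. Its near copy *Eif1b* went from 69 (53.7 to 87.3) to 4 (1.09 to 10.2) counts, 3.23-fold lower per total (1.21 to 12.2). *Eif5*, which triggers GTP hydrolysis by eIF2, went from 167 (143 to 194) to 4 (1.09 to 10.2), but 111 of the 167 came from 1 cell. The subunit-joining GTPase *Eif5b* (24 and 3 counts) and the eIF1A genes *Eif1ax* (23 and 8) and *Eif1a* (12 and 0) lay within counting error. Of the 6 genes in this group, 3 were lower beyond counting error and none higher.

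The genes of eIF2 itself were fewer in number and mixed. *Eif2s2*, the beta subunit, had 656 (607 to 708) counts in 52 uninjected cells and 19 (11.4 to 29.7) in 2 GSK-J4-treated cells. Of the 656, 278 lay in 1 cell and 263 in another, and of the 19, 18 lay in 1 cell. The alpha subunit *Eif2s1*, the target of the stress kinases, had 21 (13 to 32.1) and 2 (0.242 to 7.22) counts, within counting error. The gamma subunit is encoded on both sex chromosomes. *Eif2s3x* had 16 (9.15 to 26.0) and 4 (1.09 to 10.2) counts, all 4 in 1 cell. The Y-linked *Eif2s3y* had 1 (0.0253 to 5.57) and 4 (1.09 to 10.2) in 4 cells, higher beyond counting error per total. The sex of the mice was not taken into account. *Eif2d*, which can place tRNA without eIF2, had 13 and 5 counts.

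*Eif2a* was the 1 factor above the log-fold limit after GSK-J4. It encodes a protein that can carry initiator tRNA independently of the eIF2 complex, and its name is easily confused with that of the eIF2 alpha subunit. It lies on chromosome 3 from 58525821 to 58557501. It had 1 (0.0253 to 5.57) count in the uninjected library and 17 (9.90 to 27.2) in the GSK-J4-treated library, in 16 of 64 cells (25%, 15 to 37.4%) with at most 2 counts in a cell, and the log-fold was 0.66. The counts lay on both sides of that plate, 7 in columns 1 to 6 and 10 in columns 7 to 12. The ratio of the rates was 90.7, with a counting interval from 14.2 to 3793. Exons of *Eif2a* overlap those of *Serp1* on the other strand over 72 bases, and the sources used here do not say whether strand was used in counting. Of the 396 genes named *Olfr* or *Vmn*, 14 were also seen in 25% or more of these cells (the highest in 70.3%) and 12 in as many uninjected cells. After thinning, *Eif2a* was seen in 8% of treated and none of the uninjected cells.

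Of the 5 eIF2B genes, 4 were lower beyond counting error. *Eif2b4*, the delta subunit, went from 158 (134 to 185) to 2 (0.242 to 7.22) counts and its log-fold was -0.93, and *Eif2b2*, the beta subunit, from 53 (39.7 to 69.3) to 1 (0.0253 to 5.57). The catalytic subunit *Eif2b5* had 125 (104 to 149) and 7 (2.81 to 14.4), 77 of the 125 in 1 cell, and *Eif2b1*, the alpha subunit that senses phosphorylated eIF2, 32 (21.9 to 45.2) and 0, at least 2.0-fold lower. *Eif2b3*, the gamma subunit, had 48 (35.4 to 63.6) and 10 (4.80 to 18.4) counts with a log-fold of 0.066, within both limits.

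eIF3 contributed 13 kept genes, of which 9 were lower beyond counting error, none higher and 4 within it. *Eif3b*, a core subunit on chromosome 5 (140419328 to 140443360), was the factor with the most counts in either library, 938 (879 to 1000) in 67 uninjected cells and 96 (77.8 to 117) in 15 GSK-J4-treated cells. It made up 28.5% of all factor counts after GSK-J4, with 33 of the 96 in 1 cell, and its rate was 1.83-fold lower (1.48 to 2.28). *Eif3h* went from 122 (101 to 146) counts in 26 cells to 0, at least 7.62-fold lower, and *Eif3f* from 78 (61.7 to 97.3) in 26 cells to 0, at least 4.87-fold. *Eif3k* had 174 (149 to 202) counts in 47 cells and then 1, a rate that was 32.6-fold lower (5.77 to 1295). *Eif3g* (114 and 2 counts), *Eif3e* (107 and 2) and *Eif3i* (59 and 2) were also lower, with log-folds from -0.81 to -0.40. *Eif3l* (83 and 5) and *Eif3m* (103 and 8) were lower by counts but within 0.3 on the log-fold scale. The largest subunit, *Eif3a*, had 13 and 5 counts, a positive log-fold of 0.22 below the 10% limit in each library. The levels of *Eif3j1* (6 and 1 counts) and *Eif3j2* (10 and 1) are uncertain, since 55.6% and 92.7% of their 45-base stretches occur in other genes.

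The cap-binding and unwinding group held 10 genes, 6 lower beyond counting error and 1 higher. The cap-binding protein *Eif4e* went from 98 (79.6 to 119) counts in 32 cells to 6 (2.20 to 13.1) in 2 cells, and its relative *Eif4e2*, which binds the cap without recruiting ribosomes, from 78 (61.7 to 97.3) in 25 cells to 6 (2.20 to 13.1) in 6 cells. The log-fold was -0.57 for *Eif4e* and -0.064 for *Eif4e2*. Of the scaffolds, *Eif4g1* had 12 (6.20 to 21.0) counts in 10 cells and 9 (4.12 to 17.1) in 8 cells of the smaller library, a rate 4.0-fold higher (1.49 to 10.4) with a log-fold of 0.16. *Eif4g2*, which lacks the site for eIF4E, had 76 (59.9 to 95.1) and 1 (0.0253 to 5.57) counts. *Eif4g3* had 96 (77.8 to 117) and 22 (13.8 to 33.3), 10 of the 22 in 1 cell, and its log-fold of -0.99 became 0.098 when counts were summed over each library. The helicase genes *Eif4a1* and *Eif4a2* had 68 (52.8 to 86.2) and 34 (23.5 to 47.5) uninjected counts and 0 and 1 after GSK-J4, and *Eif4a3*, a part of the exon junction complex, 38 and 1. The helicase cofactors *Eif4b* (6 and 3 counts) and *Eif4h* (50 and 5) lay within counting error.

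*Eif4ebp1*, a repressor that releases eIF4E when mTORC1 phosphorylates it, had 192 (166 to 221) counts in 35 uninjected cells and 0 after GSK-J4, at least 12-fold lower. It lies on chromosome 8 from 27260329 to 27276674. *Eif4ebp2*, its relative, had 20 and 5 counts and lay within counting error. *Eif4enif1*, which carries eIF4E into the nucleus, had 47 (34.5 to 62.5) and 0. *Eif5a*, which encodes a protein that bears hypusine, went from 148 (125 to 174) counts in 33 cells to 2 (0.242 to 7.22) in 2 cells. Its paralog *Eif5a2* went from 4 (1.09 to 10.2) to 5 (1.62 to 11.7), a rate 6.67-fold higher (1.44 to 33.6). *Eif6*, which keeps ribosomal subunits apart, had 2 and 1 counts.

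In elongation, *Eef1a1* (chromosome 9, 78478449 to 78489151) had 629 (581 to 680.1) counts in 60 of 82 uninjected cells and 0 in the GSK-J4-treated library, at least 39.3-fold lower. Its paralog *Eef1a2*, the form of adult neurons and muscle, had 10 (4.80 to 18.4) and 0 counts. Per kb of transcript, with the limit of that scale given above, the uninjected level of *Eef1a1* was 3.15 and that of *Eef1a2* 0.0431 (0.0207 to 0.0793) per 10000. The stretches that *Eef1a1* shares lie in 23 other genes. Of the exchange factors, *Eef1g* went from 84 (67.0 to 104) to 1 (0.0253 to 5.57), *Eef1b2* from 99 (80.5 to 121) to 10 (4.80 to 18.4), 8 of them in 1 cell, and *Eef1d* from 80 (63.4 to 99.6) to 7 (2.81 to 14.4) in 7 cells, with *Eef1b2* and *Eef1d* within counting error. By the log-fold, *Eef1b2* was lower (-0.65, or -0.24 with summed counts) and *Eef1d* lay within the limit (-0.15).

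*Eef2* and the kinase that inhibits it lay on opposite sides of 1 by the ratio of summed counts. *Eef2* (chromosome 10, 81176631 to 81182498) had 144 (121 to 169.5) counts in 41 uninjected cells and 15 (8.40 to 24.7) in 4 GSK-J4-treated cells, 12 of them in 1 cell, a rate 1.80-fold lower (1.05 to 3.30). *Eef2k* (chromosome 7, 120842831 to 120907450) had 18 (10.7 to 28.4) in 4 cells and 12 (6.20 to 21.0) in 8 cells, a rate 3.56-fold higher (1.56 to 7.81), with a log-fold of 0.26 that lay within the limit. Within columns 1 to 6 the log-fold of *Eef2k* was 0.54 and within columns 7 to 12 it was -0.063, while that of *Eef2* was -0.34 and -0.81. Among the methyltransferases of the elongation factors, *Eef1akmt1* had 90 (72.4 to 111) and 2 (0.242 to 7.22) counts, *Eef2kmt* 40 (28.6 to 54.5) and 1, and *Eef1akmt2* and *Eef1akmt3* at most 10. *Eef1e1*, a part of the multi-synthetase complex, went from 115 (94.9 to 138) to 3 (0.619 to 8.77), and *Eif1ad*, which is named for an eIF1A domain, from 134 (112 to 159) to 2 (0.242 to 7.22).

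**Figure D3:**
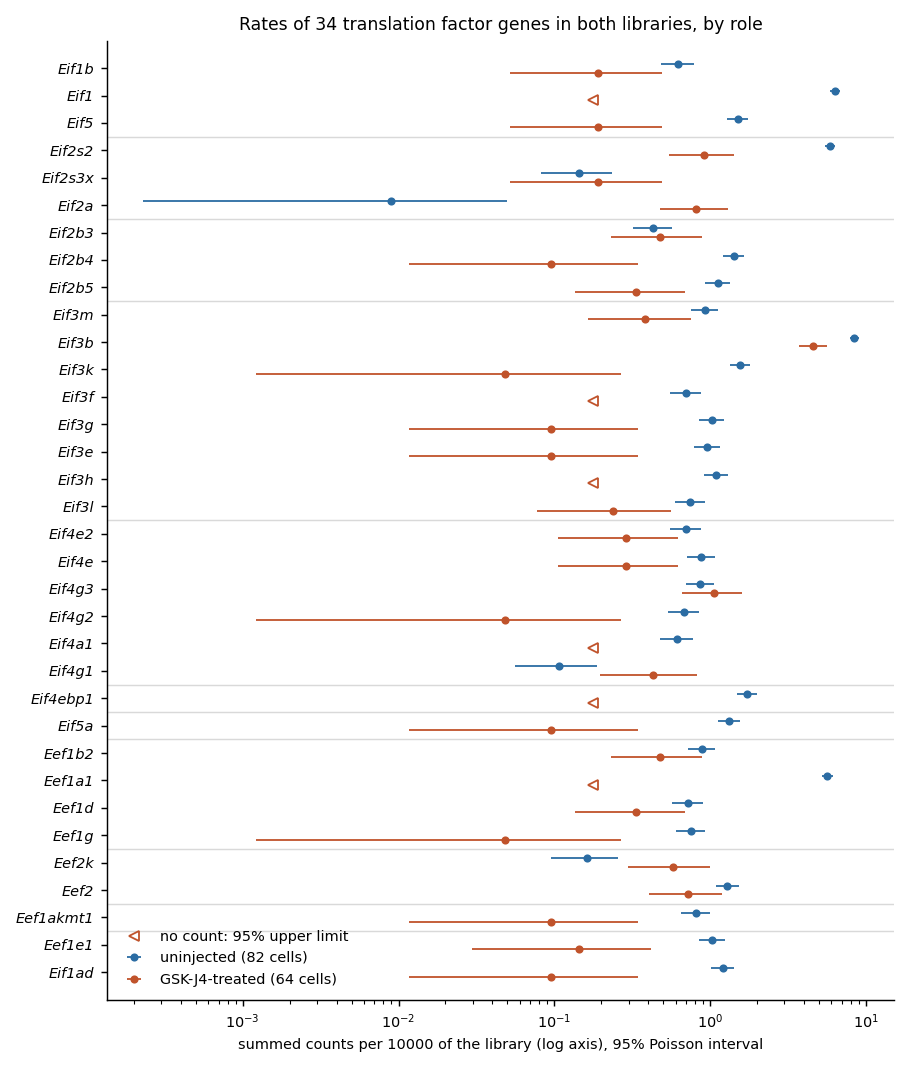
Summed counts per 10000 of the library, on a log axis with 95% Poisson intervals, for 34 translation factor genes in uninjected (blue) and GSK-J4-treated (brown) cells, grouped by role, with an open triangle at the upper limit where no count was found. Most blue points lie to the right of the brown ones, while *Eif2a*, *Eif4g1* and *Eef2k* lie the other way with intervals apart.

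Longer transcripts had the higher log-folds. Among the 46 detected factors, Spearman's rho between log-fold and transcript length was 0.356, and among 7196 genes 0.427, as a description over genes that share both libraries. The 23 shorter factors (742 to 2013 nt) had a median log-fold of -0.56 with 17 lower, and the 23 longer (2025 to 7797 nt) -0.40 with 13 lower. Lengths are those of 1 main transcript per gene. The shortest, 742 nt, is that of *Eif4g2*, whose gene spans 15.3 kb, and its other transcripts were not examined. The counts summed reads of the 3' and 5' ends, and the part of length in the result was not tested.

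Genes of the surrounding pathways are given by list, beside the 24% lower and 20.4% higher among all detected genes. Of the 8 eIF2 kinases and stress effectors with a row, 2 of 6 detected genes were lower by log-fold and none higher. *Atf4*, whose mRNA is translated when eIF2 is phosphorylated, had 342 (307 to 380.2) and 0 counts, and the kinase *Eif2ak3* (PERK) had 116 (95.9 to 139) and 14 (7.65 to 23.5), within counting error. Of 11 genes of mTORC1 and eIF4E signalling, 1 of 5 detected was lower, the mTORC1 activator *Rheb* (110 and 4 counts), and none was higher. *Larp1*, a binder of mRNAs that encode translation factors, had 92 (74.2 to 113) and 30 (20.2 to 42.8), 14 of the 30 in 1 cell, and a log-fold of 0.16. Among the poly(A)-binding proteins and partners, *Pabpc1* stood above the limit (log-fold 0.40, from 106 uninjected counts, 86.8 to 128, and 38 others, 26.9 to 52.2), while its repressor *Paip2* was below with 186 (160.2 to 215) and 15 (8.40 to 24.7) and -0.65. Among the release and recycling factors, *Etf1*, which reads stop codons, had 34 (23.5 to 47.5) and 65 (50.2 to 82.8) counts, the latter in 19 cells with 47 in 1 of them, and a log-fold of 1.10, and *Denr* 150 (127 to 176) and 4 (1.09 to 10.2) with -0.62.

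The aminoacyl-tRNA synthetases, with 21 genes, had 3 of 13 detected genes lower, among them *Farsa* (178 and 3 counts) and *Sars* (149 and 5), and 1 higher, *Iars* (47 and 10, log-fold 0.38). None of the 4 detected mitochondrial translation factors was beyond 0.3 by log-fold, with *Gfm2* at 102 and 5 counts (0.23) and *Gfm1* at 94 and 7 (-0.27). By summed counts, 3 of the 7 genes of this list were lower beyond counting error and 0 higher. Their share of counts went from 0.0262% (0.0233 to 0.0294%) to 0.00767% (0.00438 to 0.0125%). The enzymes that make hypusine, *Dhps* and *Dohh*, had 13 and 10 uninjected counts and 0 and 1 after GSK-J4.

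Within the uninjected library, the well of each cell gives its side of the plate. Columns 1 to 6 held 39 cells with 546722 counts (median 8819 per cell) and columns 7 to 12 held 43 with 566702 (median 7163). The total share of the factors was alike within counting error, at 0.574% (0.554 to 0.594%) and 0.576% (0.556 to 0.596%), while single factors lay apart in both directions. By summed counts 18 of the 59 were higher beyond counting error in columns 1 to 6 and 18 in columns 7 to 12, where 14.3% and 13.5% of 15947 genes were, or 27.9% in either direction. By the log-fold, columns 1 to 6 minus 7 to 12, 16 of 50 detected factors were above 0.3 and 10 below -0.3, against 15.9% and 14.6% of 8823 genes, or 26 of 50 (52%) against 30.5% in either direction. The median was 0.13 for the factors and 0.017 for all genes. With summed counts the split was 13 and 13. Genes with few counts pass both limits less easily here too. At detection in 25% or more of the cells of either side, 15 of 35 factors were above 0.3 and 10 below -0.3. Of all genes so detected, 27.5% were above and 25.3% below. Cells of 1 plate are not replicates, and side, sorting order and any batch of library making that follows the columns cannot be told apart.

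The factors higher in columns 1 to 6 came from initiation and elongation alike. *Eif3e*, a subunit of eIF3, had 102 (83.2 to 124) counts in 19 of 39 cells there and 5 (1.62 to 11.7) in 4 of 43 cells of columns 7 to 12, although 68 of the 102 were in 1 cell. *Eef1g* had 79 (62.5 to 98.5) in 23 cells and 5 (1.62 to 11.7) in 4 cells, with no cell above 14 and with the shared stretches given above, and was thus seen in 59.0% (42.1 to 74.4%) and 9.30% (2.59 to 22.1%) of cells. *Eif4h* had 49 (36.3 to 64.8) in 13 cells and 1 (0.0253 to 5.57) in 1 cell, *Eif5* 155 (132 to 181) in 20 cells and 12 (6.20 to 21.0) in 7, and *Eif3h* 101 (82.3 to 123) in 20 cells and 21 (13 to 32.1) in 6. *Eif4e* was seen in 59.0% (42.1 to 74.4%) and 20.9% (10.0 to 36.0%) of cells, with 83 (66.1 to 103) and 15 (8.40 to 24.7) counts. *Eif3k* (132 and 42 counts), *Eif4e2* (63 and 15), *Eif1b* (57 and 12), *Eif3i* (49 and 10) and *Eef1b2* (63 and 36) lay the same way. In columns 1 to 6, single cells held 111 of the *Eif5* counts, 52 of *Eif3k*, 32 of *Eif3h* and 29 of *Eif4h*.

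The factors higher in columns 7 to 12 did so likewise over several roles. *Eif2b5*, the catalytic subunit of eIF2B, had 1 (0.0253 to 5.57) count in 1 of 39 cells of columns 1 to 6 and 124 (103 to 148) in 20 of 43 cells of columns 7 to 12, or 2.56% (0.0649 to 13.5%) and 46.5% (31.2 to 62.3%) of cells. *Eif1ad* had 10 (4.80 to 18.4) in 4 cells and 124 (103 to 148) in 22 cells, and *Eif5a* 16 (9.15 to 26.0) in 7 cells and 132 (110 to 157) in 26 cells, or 17.9% (7.54 to 33.5%) and 60.5% (44.4 to 75.0%) of cells. *Eef1d* (9 and 71 counts, 6 and 17 cells), *Eif3m* (15 and 88, 10 and 20 cells), *Eef1akmt1* (19 and 71) and *Eif4a1* (15 and 53) lay the same way, and so did *Eef2* with 36 (25.2 to 49.8) and 108 (88.6 to 130.4). *Eif4ebp1* (70 and 122) and *Eif3l* (23 and 60) were also on this side. In columns 7 to 12, 1 cell held 77 of the *Eif2b5* counts, 65 of those of *Eif1ad* and 61 of those of *Eif4ebp1*. Other single cells held 59 of the *Eif5a* counts, 52 of *Eif3m*, 40 of *Eef1akmt1* and 38 of *Eef2*.

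**Figure D4:**
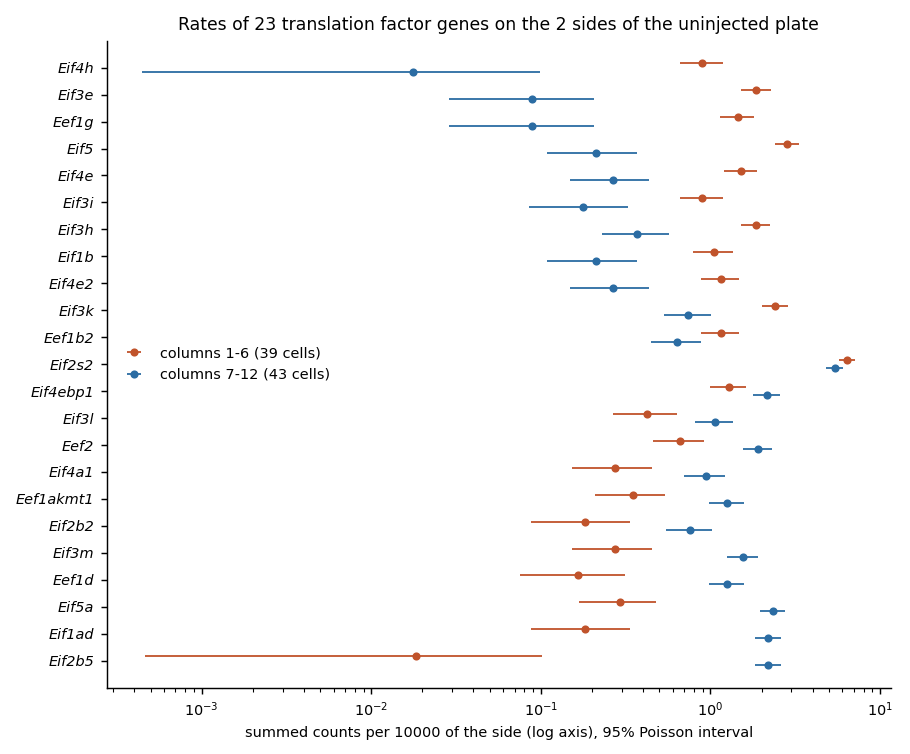
Summed counts per 10000 of each side of the uninjected plate, on a log axis with 95% Poisson intervals, for 23 translation factor genes, ordered by the ratio of the sides. The rates part at the top (*Eif4h*, *Eif3e*) in favour of columns 1 to 6 and at the bottom (*Eif2b5*, *Eif1ad*) in favour of columns 7 to 12, and lie close together for *Eif2s2*.

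Subunits of 1 complex thus lay on different sides. In eIF3, *Eif3e*, *Eif3h*, *Eif3i* and *Eif3k* were higher in columns 1 to 6 and *Eif3l* and *Eif3m* in columns 7 to 12. *Eif3b*, with 329 (294 to 367) and 609 (562 to 659) counts, was higher in columns 7 to 12 by counts only (log-fold -0.04), and *Eif3g* (61 and 53) and *Eif3f* (37 and 41) lay within counting error. In eEF1, *Eef1g* and *Eef1b2* were on the first side and *Eef1d* on the other. The eIF5A and eIF6 genes and those of eIF2B had 18 and 104 counts in columns 1 to 6 and 136 and 312 in columns 7 to 12, while the start-codon and subunit-joining factors had 716 and 286. *Eif2b2* is ambiguous, with 10 and 43 counts but a log-fold of 0.33 in favour of columns 1 to 6, and *Eif2s2*, with 350 and 306 counts, had 263 and 278 of these in 1 cell of each side. *Eif1* had 465 (424 to 509) and 242 (212 to 274) counts and was seen in 82.1% (66.5 to 92.5%) and 76.7% (61.4 to 88.2%) of cells, so the shares of cells lay close and the counts apart. *Eef1a1* had 266 (235 to 300.0) and 363 (327 to 402).

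**Figure D5:**
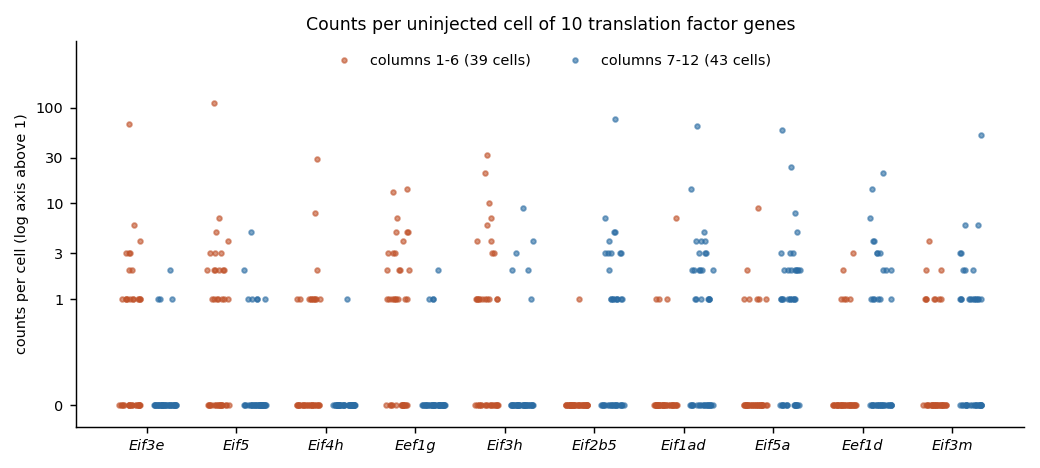
Counts per cell, on a log axis above 1, of 10 translation factor genes in the 39 uninjected cells of columns 1 to 6 (brown) and the 43 of columns 7 to 12 (blue), 1 point per cell. The genes were chosen after their values were seen, and single cells reach 68 counts for *Eif3e*, 111 for *Eif5* and 77 for *Eif2b5*, and the shares of cells above 0 differ between the sides.

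The sides differed in other transcripts as well. Cone markers took 2.48% of the counts in columns 1 to 6 and 2.69% in columns 7 to 12 (0.405 to 7.45% and 0.358 to 9.81% per cell), with none of the 11 at 0 on either side. Rod markers took 0.183% (0.0403 to 0.796% per cell) and 0.0960% (0 to 0.710%), with *Nrl* at 0 in columns 1 to 6, and Müller glia markers 0.134% (0 to 3.91%) and 0.0840% (0 to 1.78%). Their part in the side differences was not tested. Ribosomal protein genes, set beside the factors, had 23 of 80 detected genes above and 14 below the limit between the sides, and proteasome subunits 7 and 13 of 35. In the GSK-J4-treated library the factors had 133 counts in columns 1 to 6 and 204 in columns 7 to 12, and single factors could lie on 1 side because of 1 cell. *Eif2s2* had 0 and 19 counts there with 18 in 1 cell, *Eef2* 1 and 14 with 12 in 1 cell, *Eif4g3* 3 and 19 with 10 in 1 cell, *Eif2b5* 0 and 7 with 5 in 1 cell, and *Eif5a2* 5 and 0.

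The side bears on the comparison of the libraries where a factor was seen mainly on 1 side. The log-fold of *Eif3h* after GSK-J4 was -1.63 within columns 1 to 6 and -0.20 within columns 7 to 12, and that of *Eif3k* -1.91 and -0.41. That of *Eif4e* was -1.10 and 0.095, and that of *Eef1g* -0.91 and 0.059. In the other direction *Eif5a* had -0.33 and -1.32, and *Eif1ad* -0.16 and -1.05. *Eif1* (-2.16 and -1.87), *Eef1a1* (-2.10 and -1.92) and *Eif4ebp1* (-0.95 and -1.39) were below the limit on both sides, and *Eif2a* above it on both (0.76 and 0.54).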

How the data were processed

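Single GFP-positive cells were sorted into 96-well plates and their RNA was sequenced by a method adapted from SMART-seq2 and MARS-seq. The authors deposited whole-number counts per gene and cell without normalization. To make them, the authors assigned reads to wells, removed PCR duplicates by a UMI and the mapping position, counted reads per gene with featureCounts, and summed the counts of the 3' and 5' ends. The submitters' processing notes name the genome GRCh38, a human build number, and coordinates were therefore taken from GENCODE vM21 (GRCm38), where each of the 62 symbols matched 1 gene. The names of the treated cells contain adult, although the label's age is P24.

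Genes seen in fewer than 3 cells were dropped, as were cells with fewer than 200 genes or more than 5% of counts on mitochondrial genes, leaving 15947 genes and 146 of 151 cells, with a kept cell in both plates at 54 well positions. Each cell was scaled to 10000 counts for the log-fold, with a pseudocount of 1. Totals per cell ran from 860 to 98250 in uninjected and from 420 to 15371 in GSK-J4-treated cells, so that a rate from few counts is imprecise. Ratios of summed counts have exact conditional binomial intervals. A fold given as at least sets a count against a floor of 3 counts over the library without one, and is not a 95% limit. Calculations, tested on simulated data, used scipy 1.17.1, numpy 2.4.6 and pandas 2.3.3 in Python 3.11.15. No doublet caller, batch correction or test was run. Values are given for factors detected in 25% or more of either library's cells, with a positive log-fold in at least 10%, or beyond both the counting interval and 0.3 between the sides, and for their paralogs, with the others by counts. From each pathway list the 2 genes with the most counts and genes with a positive log-fold could be named. The members and lists were chosen with earlier results of these data known. Alternatives were other scalings, thinning, filters, pseudocounts and each side of the plates alone.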

Additional observations from a re-analysis of the deposited data

How the results depend on the processing

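No paired analysis was possible because there was 1 library per group. The count of factors lower after GSK-J4 (30 of 46) and the median log-fold (-0.49) kept their direction under summed counts, median-ratio size factors, all deposited cells, other detection and gene limits and each side of the plates alone. Thinning to equal depth left 8 detected factors, 7 lower and 0 higher, with a median of -0.80, since few genes are seen at that depth. Of all genes detected there, 37.1% were lower and 46.3% higher, with a median of 0.22. A pseudocount of 0.1 gave a median of -1.35 with 39 of 46 lower and 4 higher, beside 40.9% lower and 38.2% higher of all genes. The count of factors higher after GSK-J4, 1, was 2 with summed counts, 3 among cells with at least 500 genes, and 2 within either side. Of all genes, 19.3%, 20.6%, 22.3% (columns 1 to 6) and 23.6% (columns 7 to 12) were higher under these settings. Median-ratio scaling moved the median of all genes to -0.14, and that of the factors was -0.54 with 36 lower. Between the sides of the uninjected plate, 5 of 20 detected factors (25%, against 30.5% of all genes) were higher in columns 7 to 12 after thinning. With the pseudocount of 0.1, 16 of 50 were (32%, against 32.5%), in place of 10 of 50. In columns 1 to 6, 14 of 20 (70%, against 39.4%) and 24 of 50 (48%, against 37.8%) were higher, in place of 16. The median of 0.13 became 0.43 and 0.26, beside 0.12 and 0.066 over all genes. With summed counts it was 0.027 beside 0.019, and with median-ratio size factors 0.022 beside 0.012. Among cells with at least 500 genes it was 0.0060 beside 0.0079. There 13 of 53 factors were higher in columns 1 to 6 and 12 in columns 7 to 12. At detection in 25% of cells the median was 0.22 beside 0.028. The shares of counts on the factors were 0.665% and 0.194% after thinning. Among factors beyond 0.3, the sign turned for *Eif4g3* with summed counts (0.098) and within columns 7 to 12 (0.031), and within columns 7 to 12 for *Eif4e* (0.095) and *Eef1g* (0.059). Among named factors within 0.3, it turned for *Eef2k* within columns 7 to 12 (-0.063), *Eef1d* within columns 1 to 6 (0.033), *Eif2s3x* with median-ratio scaling (-0.041) and within columns 7 to 12 (-0.075), and *Eif2b3* with median-ratio scaling (-0.15) and within columns 1 to 6 (-0.11). The causes were not tested. The GSK-J4-treated library held 337 counts of 59 genes, with no count for 11 of them and 1 to 3 for 23.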
